A study of Mus musculus with 12 samples.

Results

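Fatty acid synthesis in hepatocytes was followed through 10 genes, which were taken from the 26748 genes of the expression table by their mouse symbols. They are the transcription factor genes Srebf1 and Mlxipl, the enzyme genes Acly, Acaca, Acacb, Fasn and Elovl6, and the desaturase genes Scd1, Fads1 and Fads2. All 10 passed the filter on low values, at least 1 TPM in at least 3 libraries, and 11018 genes in all did so. The hepatocytes came from male C57bl/6 mice of 2 genotypes. Floxed mice carry the Rxra gene flanked by loxP sites and served as the intact control, and knockout mice lack RXRα in the liver. Each genotype was studied without drug and after 5 days of bexarotene, a drug that activates retinoid X receptors, at 100 mg/kg once a day. That gave 4 groups of 3 libraries, named floxed control, floxed bexarotene, knockout control and treated knockout. Below, floxed and knockout livers mean these hepatocyte samples. The Cre driver, the ages, the vehicle, the time of day of collection and the number of animals are not given in the sources used here.

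New fatty acids are built in the liver from citrate that leaves the mitochondria. ATP citrate lyase turns citrate into acetyl-CoA, acetyl-CoA carboxylases turn that into malonyl-CoA, fatty acid synthase joins the units into palmitate, Elovl6 lengthens palmitate to stearate, and Scd1 puts in the double bond that makes palmitoleate and oleate. Fads1 and Fads2 desaturate the polyunsaturated fatty acids that come from the diet. Srebf1 encodes SREBP1, whose liver form is induced by insulin and by the oxysterol receptor LXR, and Mlxipl encodes ChREBP, which responds to sugar. LXR binds DNA as a pair with a retinoid X receptor.

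Rxra itself stood at 79.5 to 86.1 TPM in the 6 floxed libraries and at 26.1 to 33.1 TPM in the 6 knockout libraries with no overlap, so that some of its transcript was still read in the knockouts. The other retinoid X receptor genes, Rxrb (8.19 to 13.98 TPM) and Rxrg (0.80 to 1.83 TPM), were not called in any comparison. TPM is coverage scaled for transcript length and library total, so levels can be compared between genes, but the depth of each library is unknown. Floxed controls 1 and 3, and all 3 treated knockouts, were near-identical: the robust SD of their log2 difference over genes of at least 100 TPM was 0.0547 to 0.0800, against 0.143 to 0.425 for the other 8 pairs within groups. Each such set was averaged and counted as 1 sample, which left n = 2 floxed control, 3 floxed bexarotene, 3 knockout control and 1 treated knockout. Clock genes that peak in the evening stood below those that peak in the morning in the floxed controls (mean log2 gaps of -1.50 to -0.947) and above them in the treated floxed libraries (1.20 to 1.96), so the clock difference and bexarotene cannot be told apart in floxed mice. Knockout control 5 stood apart from knockout controls 1 and 2 on this gap, at -1.96 against 1.21 and 1.11, while the treated knockouts were at 0.622 to 0.700. Knockout controls 1 and 2 and the treated knockouts thus also lay above every floxed control. Between knockout controls 1 and 2 and floxed controls, the clock difference and genotype cannot be told apart. Between treated knockouts and floxed controls, clock, genotype and drug cannot be told apart. The treated knockouts lay below every treated floxed library on this gap, so under bexarotene clock and genotype cannot be told apart. They also lay below knockout controls 1 and 2. In fits without knockout control 5, clock and drug therefore cannot be told apart in knockouts, nor in the difference between the drug effects. Hepatocyte markers, 10 of 10 present, summed to 69974.5 to 83206.6 TPM in floxed controls and to 62239.6 to 66372.4 TPM with bexarotene with no overlap. In knockouts they summed to 78273.3 to 91054 TPM without drug and to 76112.6 to 78957.6 TPM with it. The part of this difference in the results was not tested. Macrophage markers, 11 of 12 reaching 1 TPM, summed to 99.2 TPM in floxed control 4, 73.7 in floxed bexarotene 4 and 73.1 to 83.2 in the treated knockouts, against 16.6 to 38.3 in the other libraries, and their part in the results was not tested. With bexarotene their 10 tested genes had a median log2 difference of -0.61 in floxed and 1.39 in knockout livers, and 5 erythroid genes -0.16 and 1.96. Neutrophil markers, 5 of 5 reaching 1 TPM, summed to 15.97 to 54.73 TPM in floxed controls and to 5.37 to 13.21 TPM with bexarotene with no overlap, and to 11.83 to 37.47 and 7.95 to 10.28 TPM in knockouts without and with drug. Their 3 tested genes had medians of -1.26 in floxed and -0.39 in knockout livers, and their part in the results was not tested. Adipocytes, which also make fatty acids, left little signal, since 3 of 6 listed markers were in the table and the highest value of any was 2.81 TPM.

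With bexarotene, the floxed livers held more transcript of both regulators and of the carboxylase, synthase and elongase genes. Of the 10 genes 5 rose (Srebf1, Mlxipl, Acaca, Fasn and Elovl6) and 0 fell at an adjusted p under 0.05 in limma, where 2.12% of all tested genes changed, 1.84% rising and 0.281% falling. With 12 separate libraries 7 were called, where 9.64% of tested genes were. Their median log2 difference was 1.37, against 0.062 over all tested genes. In 8 genes, all but Acly and Fads1, every treated library was above every control library, as in 25.7% of tested genes. In these bulk samples, fewer cells of a type and less RNA per cell cannot be told apart. The calls rested on few samples: leaving out floxed control 4 made the 5 calls 1, leaving out floxed controls 1 and 3 made them 0, and dropping treated floxed library 1, 3 or 4 left 0, 1 or 2, although all 5 differences stayed above 1 on the log2 scale.

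In knockout livers the response to bexarotene was led by 1 gene. Scd1 rose and was the only 1 of the 10 genes to pass, where 0.517% of tested genes changed and 0.417% rose. The median difference of the 10 genes was 1.00, against 0.098 over all tested genes, and 8 of them, all but Fads1 and Fads2, were higher in every treated library than in every control, as in 20% of tested genes. With the 3 near-identical treated libraries taken as separate samples, 7 of the 10 rose (all but Elovl6, Fads1 and Fads2), where 10% of all tested genes changed. When the fit held just the 2 knockout groups, 0 passed, and Scd1 had an adjusted p of 0.098.

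Loss of RXRα without drug went with less Scd1, which fell, where 3.76% of tested genes changed and 1.92% fell. It was the only gene of the 10 to pass, and with 12 separate libraries 4 did, where 11.8% of tested genes did. Srebf1 and Scd1 were lower in every knockout control than in every floxed control, as in 11.1% of tested genes, and Acaca, Elovl6 and Fads1 were higher in every one, as in 14.2%. Under bexarotene, Srebf1 was the 1 gene of the 10 that differed by genotype, lower in the treated knockouts, where 1.93% of tested genes changed and 1.25% fell (4 genes with 12 separate libraries, against 14.4%). In the treated knockouts Srebf1, Mlxipl and Fads2 lay below every treated floxed library (19.2% of tested genes did so), and Acly, Acaca, Acacb, Scd1 and Fads1 above every one (23.2%). Set against untreated floxed livers, the treated knockouts had more Acaca and Scd1, the 2 of 10 that passed, where 1.29% of tested genes changed and 0.853% rose. With 12 separate libraries 7 passed, against 15.3%. Every treated knockout was above every untreated floxed library for 7 genes, all but Srebf1, Acly and Fads2, as in 34% of tested genes, and below every one for Srebf1, as in 12.6%. The difference between the bexarotene effects of the genotypes passed for 0 of the 10 in limma, where 0.2% of tested genes passed. At an unadjusted p under 0.05 it passed for 2, Scd1 and Acly, and for 1029 of all 11018 tested genes. With 12 separate libraries it passed for 1, Scd1 (5.91% of tested genes). These comparisons share groups, so their counts are not separate evidence.

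**Figure D1:**
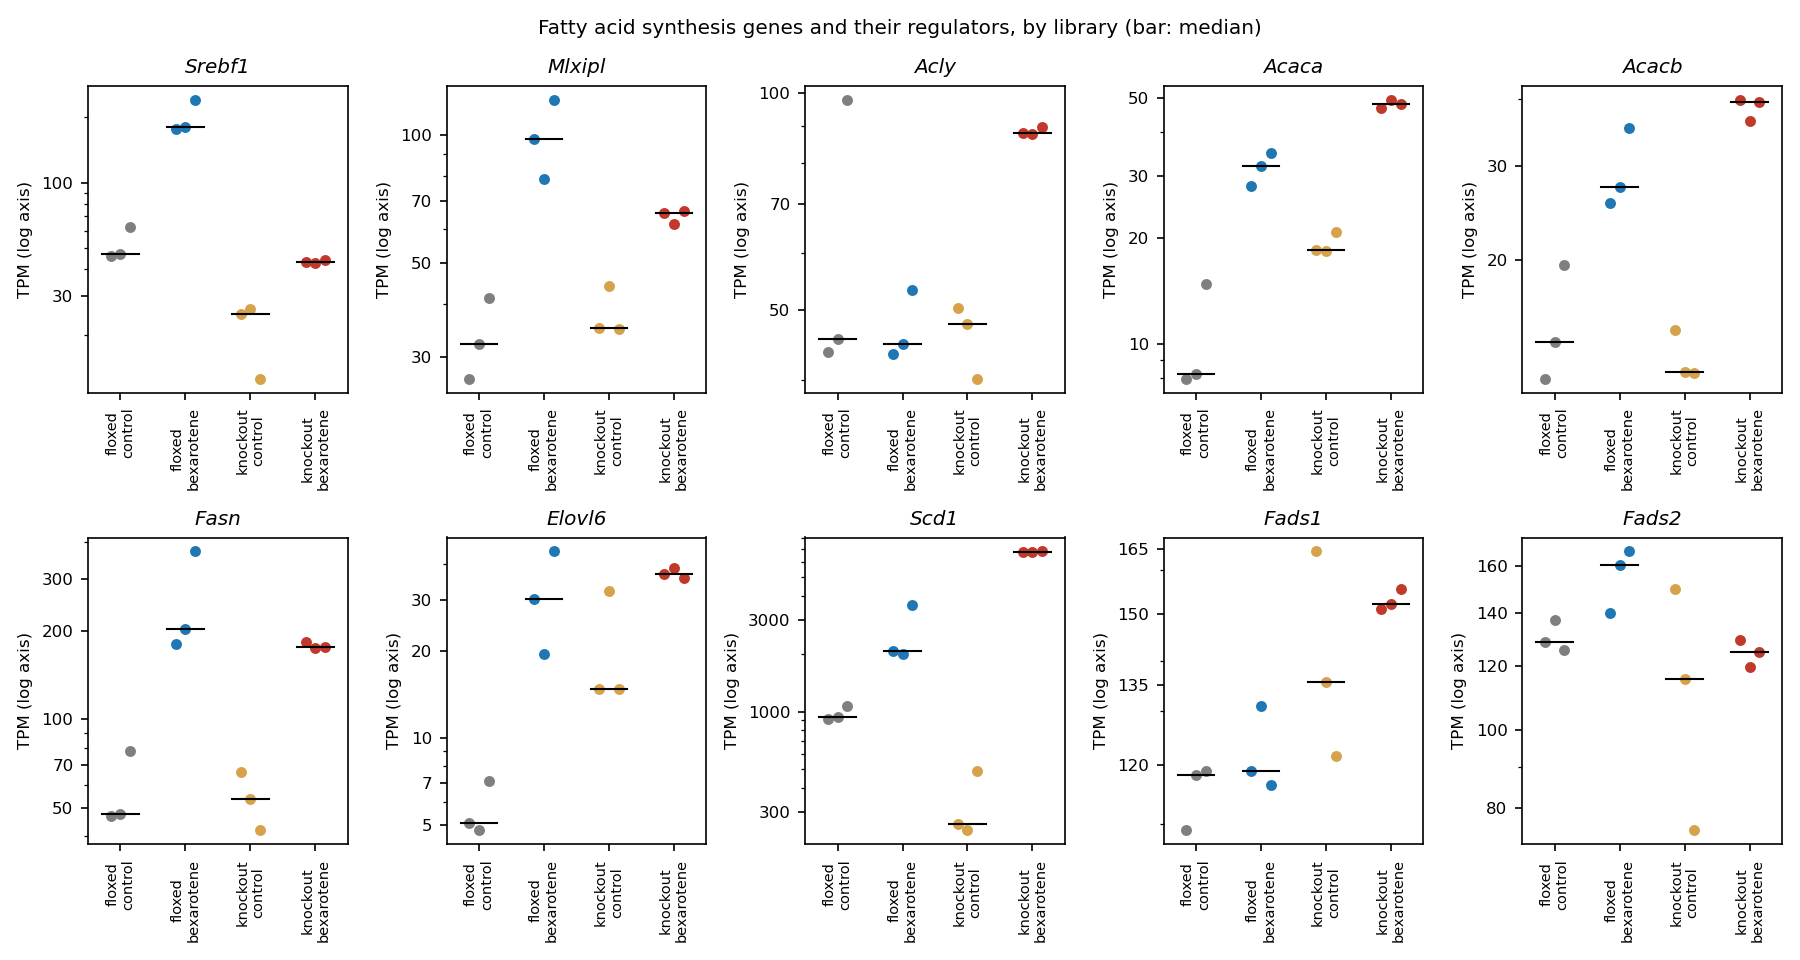
TPM of the 10 genes in each of the 12 libraries, on a log axis with its own range in each panel, by group, with a bar at the median. Srebf1 shows 177 to 240 TPM in treated floxed libraries and at most 62.3 TPM in the other 9, while Scd1 is highest in the 3 treated knockouts, which are near-identical and count as 1 sample.

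Srebf1, the gene of the lipogenic regulator SREBP1, did not overlap between any 2 of the 4 groups. It stood at 46.0, 47.1 and 62.3 TPM in floxed controls 1, 3 and 4 and at 177, 179 and 240 TPM in floxed bexarotene 1, 3 and 4. Knockout controls 1, 2 and 5 held 24.8, 26.3 and 12.5 TPM, and the treated knockouts 43.1, 42.7 and 44.3 TPM. The treated floxed libraries stood far above the rest, and the treated knockouts stayed just under the lowest untreated floxed library. With bexarotene Srebf1 rose in floxed livers by 1.85 ± 0.31 on the log2(TPM + 1) scale (SE, adjusted p = 0.0241 in limma). Its mean went from 54.4 ± 11.2 (SD, n = 2) to 198.8 ± 35.9 TPM (n = 3). In knockout livers the difference was 1.07 ± 0.39 (adjusted p = 0.428), and 0.74 without knockout control 5, which held the least Srebf1 of the 12 libraries. Without drug the knockouts were 1.37 ± 0.31 below the floxed livers (adjusted p = 0.0523), a gap that passed without knockout control 5 at -1.05 (adjusted p = 0.0249). The knockout controls left in that fit lay above every floxed control on the clock gap, so it cannot tell genotype and clock apart. Treated knockouts lay below every treated floxed library on the same gap, so genotype and clock cannot be told apart under bexarotene either. Under bexarotene Srebf1 fell by 2.16 ± 0.39 in knockouts against floxed livers (adjusted p = 0.0329), and 6 of 14 fits with libraries left out lost that call (adjusted p up to 0.137). The response to the drug itself did not differ detectably between genotypes, at -0.78 ± 0.50 (adjusted p = 0.696).

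Mlxipl, which encodes ChREBP, was highest in treated floxed livers. Its levels were 26.7, 32.3 and 41.5 TPM in floxed controls, 97.7, 78.8 and 120.8 TPM with bexarotene, 35.2, 44.2 and 34.9 TPM in knockout controls and 65.7, 61.7 and 66.1 TPM in treated knockouts. Untreated libraries overlapped, and treated libraries of each genotype lay above their own controls. The rise in floxed livers was 1.45 ± 0.22 (adjusted p = 0.0163), and the difference in knockouts was 0.75 ± 0.28 (adjusted p = 0.430). Without drug the genotypes differed by 0.11 ± 0.22 (adjusted p = 0.865), and under bexarotene by -0.59 ± 0.28 (adjusted p = 0.469).

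Promoter letters are shown for the regulators and for Fasn because LXR, which pairs with RXR, is known to bind the promoters of Srebf1 and Fasn, and because E-boxes are the core of ChREBP sites. The bases are the 250 before a RefSeq start site of build GRCm38.p6, written 5′ to 3′ on the gene's strand, and the windows are Srebf1 chr11:60210472-60210721 (minus strand), Fasn chr11:120824548-120824797 (minus strand) and Mlxipl chr5:135089640-135089889 (plus strand). Capitals mark an LXR-type element in the first 2 and an E-box in the last.
Srebf1: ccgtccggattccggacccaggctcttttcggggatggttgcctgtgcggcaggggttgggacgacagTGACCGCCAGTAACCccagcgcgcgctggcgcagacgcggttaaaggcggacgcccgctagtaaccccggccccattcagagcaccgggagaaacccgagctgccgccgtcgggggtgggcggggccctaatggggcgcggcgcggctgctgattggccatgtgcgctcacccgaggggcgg
Fasn: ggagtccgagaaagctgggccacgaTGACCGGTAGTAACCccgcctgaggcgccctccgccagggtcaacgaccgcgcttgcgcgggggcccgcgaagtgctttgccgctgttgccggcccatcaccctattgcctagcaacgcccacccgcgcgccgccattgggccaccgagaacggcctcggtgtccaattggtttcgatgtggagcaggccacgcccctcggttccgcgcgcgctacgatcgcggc
Mlxipl: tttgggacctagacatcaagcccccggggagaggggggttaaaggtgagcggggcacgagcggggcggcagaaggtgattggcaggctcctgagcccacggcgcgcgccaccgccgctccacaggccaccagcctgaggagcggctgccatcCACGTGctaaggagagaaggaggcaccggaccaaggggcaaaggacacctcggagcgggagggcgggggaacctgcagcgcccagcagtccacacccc

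The element of Srebf1 lies at -182 to -168 and that of Fasn at -225 to -211 from the start site. The letters TGACCG and AGTAACC, 2 bases apart, on either strand were found in 3 of 32851 windows (0.00913%), those of Srebf1, Fasn and the sterol exporter gene Abca1. These letters were written after the windows had been read, so that the matches are a description. The E-box CACGTG of Mlxipl lies at -98 to -93, and 6.02% of all windows hold one. Among the other letters searched on both strands, a direct repeat of AGGTCA with 4 bases between the copies was in 0 of the 11 windows of the 8 genes that have any and in 0.0152% of all windows. TCACNCCAC was in 1, a second Mlxipl window, and in 1.05% of all, and CCAAT was in 5 and in 33.8% of all. Srebf1 has more than 1 start site, which serve different forms of SREBP1, and the TPM values join them.

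The genes that supply acetyl-CoA and malonyl-CoA did not move together. Acaca, the cytosolic carboxylase that feeds the synthase, had 7.96, 8.20 and 14.8 TPM in floxed controls, 28.0, 32.1 and 34.7 TPM with bexarotene, 18.5, 18.4 and 20.7 TPM in knockout controls and 46.6, 49.2 and 48.0 TPM in treated knockouts. The order of the groups had no overlap: floxed control, knockout control, floxed bexarotene, treated knockout. Acaca rose by 1.44 ± 0.22 with bexarotene in floxed livers (adjusted p = 0.0182), and the difference in knockouts was 1.28 ± 0.28 (adjusted p = 0.132). Between treated knockout and untreated floxed livers it rose by 2.03 ± 0.30 (adjusted p = 0.0246). Its bexarotene effects differed by -0.16 between genotypes, with a 95% interval of -0.99 to 0.67 that leaves room for a difference in either direction.

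Acacb, the carboxylase at the mitochondrion whose malonyl-CoA holds back fatty acid oxidation, stood at 11.95, 14.0 and 19.5 TPM in floxed controls and 25.6, 27.4 and 35.3 TPM with bexarotene. Knockout controls had 14.8, 12.3 and 12.2 TPM and treated knockouts 39.9, 36.5 and 39.6 TPM. Treated and control libraries did not overlap in either genotype, yet neither difference passed: 0.83 ± 0.21 in floxed (adjusted p = 0.0954) and 1.50 ± 0.26 in knockout livers (adjusted p = 0.0659).

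Acly, the citrate lyase, was the exception in floxed livers. Floxed controls held 43.7, 45.5 and 97.8 TPM, with control 4 at the highest level of all libraries, and treated floxed libraries 43.4, 44.8 and 53.3 TPM. Knockout controls held 50.2, 47.7 and 40.1 TPM and treated knockouts 88.0, 87.6 and 89.7 TPM. The difference with bexarotene was -0.48 ± 0.29 in floxed livers (adjusted p = 0.485), which turned to 0.074 without control 4, and 0.93 ± 0.37 in knockouts (adjusted p = 0.481). The effects differed by 1.42 ± 0.47 between genotypes (adjusted p = 0.399).

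Fasn, the synthase itself, rose with bexarotene about as far as Srebf1 in floxed livers. It had 47.0, 47.8 and 77.8 TPM in floxed controls and 179.8, 203.1 and 372.4 TPM with the drug. Knockout controls held 66.5, 53.7 and 42.0 TPM and treated knockouts 183.7, 174.2 and 175.9 TPM. Controls of both genotypes overlapped, and all 6 treated libraries lay above all 6 controls. The rise in floxed livers was 1.96 ± 0.35 (adjusted p = 0.0295), from 62.6 ± 21.5 (SD, n = 2) to 251.8 ± 105 TPM (n = 3). In knockouts the difference was 1.73 ± 0.44 (adjusted p = 0.195). The genotypes differed by -0.19 ± 0.35 without drug (adjusted p = 0.853) and by -0.42 ± 0.44 with it (adjusted p = 0.840). The gap between the drug effects was -0.23, with a 95% interval of -1.51 to 1.05.

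Elovl6, the elongase from palmitate to stearate, was lowest in floxed controls, at 5.08, 4.80 and 7.09 TPM. It reached 30.2, 19.4 and 44.1 TPM in treated floxed libraries, a rise of 2.14 ± 0.41 (adjusted p = 0.0399). Knockout controls stood at 14.8, 32.1 and 14.7 TPM, above every floxed control, by 1.54 ± 0.41 (adjusted p = 0.0859), and this passed with 12 separate libraries (adjusted p = 0.00631). Treated knockouts held 36.9, 38.6 and 35.8 TPM, 0.92 ± 0.51 above their controls (adjusted p = 0.681). Knockout control 2 stood above the other knockout controls for this gene.

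**Figure D2:**
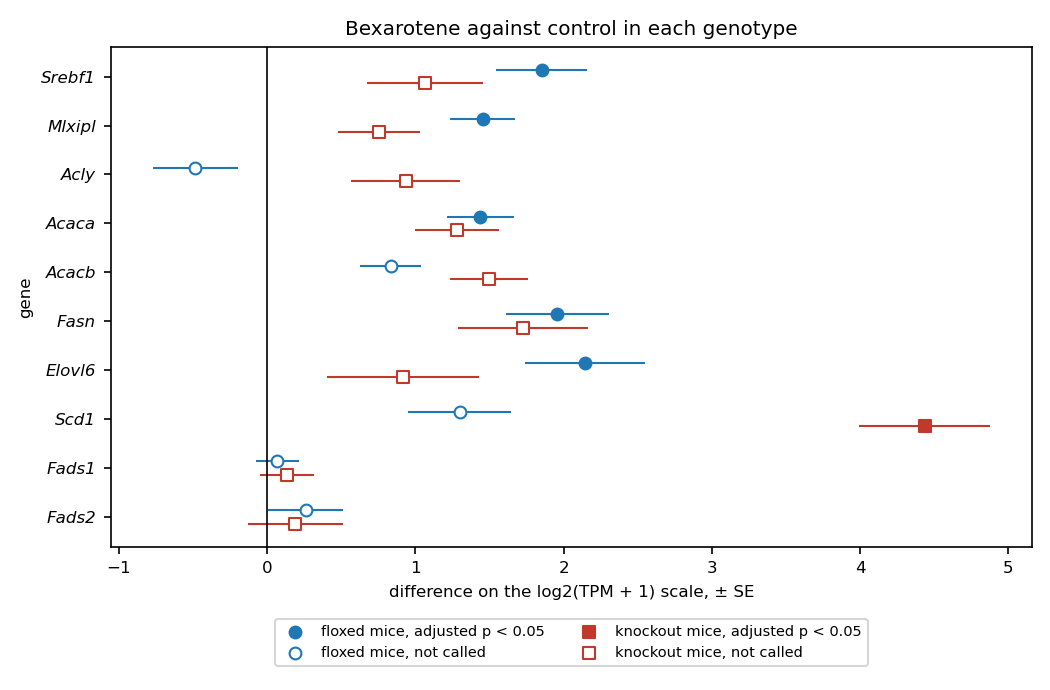
Difference between bexarotene and control on the log2(TPM + 1) scale for the 10 genes, with SE bars, in floxed (circles) and knockout livers (squares). Filled marks passed an adjusted p of 0.05, and Scd1 stands at 1.30 in floxed and 4.44 in knockout livers.

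Scd1, the desaturase that makes oleate, was the most abundant of the 10 genes in every library and had the widest range. Floxed controls held 917, 935 and 1072 TPM and treated floxed libraries 2068, 1986 and 3589 TPM. Knockout controls 1, 2 and 5 held 259, 241 and 489 TPM, and the treated knockouts 6801, 6738 and 6814 TPM. The order of the groups had no overlap, with knockout controls lowest and treated knockouts, which count as 1 sample, highest. Among all genes ranked by TPM it was number 220 to 430 in knockout controls, 106 to 119 in floxed controls, 42 to 66 in treated floxed libraries and 29 or 30 in treated knockouts. Scd1 rose by 4.44 ± 0.44 with bexarotene in knockouts (adjusted p = 0.00499), from 329.7 ± 138 (SD, n = 3) to 6785 TPM (n = 1). That call held in 14 of 14 fits with libraries left out. Each of these fits kept the 1 treated knockout sample, so they could not show whether the call depends on it. The rise was 4.76 without knockout control 5. The knockout controls left in that fit lay above every treated knockout on the clock gap, so it cannot tell drug and clock apart. In floxed livers the difference was 1.30 ± 0.35 (adjusted p = 0.118), which passed without knockout control 5 (adjusted p = 0.0359) and with 12 separate libraries (adjusted p = 0.00957).

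Without drug Scd1 fell by 1.67 ± 0.35 in knockouts (adjusted p = 0.0396), a call that was lost in 7 of 14 fits with libraries left out, among them the fit without floxed control 4 (adjusted p = 0.271). It was -1.99 without knockout control 5 (adjusted p = 0.00849). In that fit the knockout controls left lay above every floxed control on the clock gap, so genotype and clock cannot be told apart. With drug the sign was the other way, 1.47 ± 0.44 in treated knockouts against treated floxed livers (adjusted p = 0.187). The bexarotene effects differed by 3.14 ± 0.56 between genotypes, with a 95% interval of 1.85 to 4.43 and an adjusted p of 0.104. That difference passed with 12 separate libraries (3.10 ± 0.37, adjusted p = 0.00107) and without knockout control 5 (3.46, adjusted p = 0.0132). Treated knockouts were above untreated floxed livers by 2.77 ± 0.47 (adjusted p = 0.0367).

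Fads1 and Fads2 are the desaturases of polyunsaturated fatty acids. Fads1 ran from 109 to 119 TPM in floxed controls, 116 to 131 with bexarotene, 122 to 164 in knockout controls and 151 to 156 in treated knockouts. Fads2 ran from 126 to 137, 140 to 167, 75.1 to 149.8 and 120 to 130 TPM in the same order. Neither passed in any of the 6 comparisons with averaged samples. The bexarotene difference of Fads1 was 0.069 in floxed livers, with a 95% interval of -0.27 to 0.40, and 0.13 in knockouts, with an interval of -0.29 to 0.55. That of Fads2 was 0.26 (-0.32 to 0.84) and 0.19 (-0.54 to 0.93). The sign of the floxed Fads1 value turned under other scalings, at -0.076 and -0.029.

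**Figure D3:**
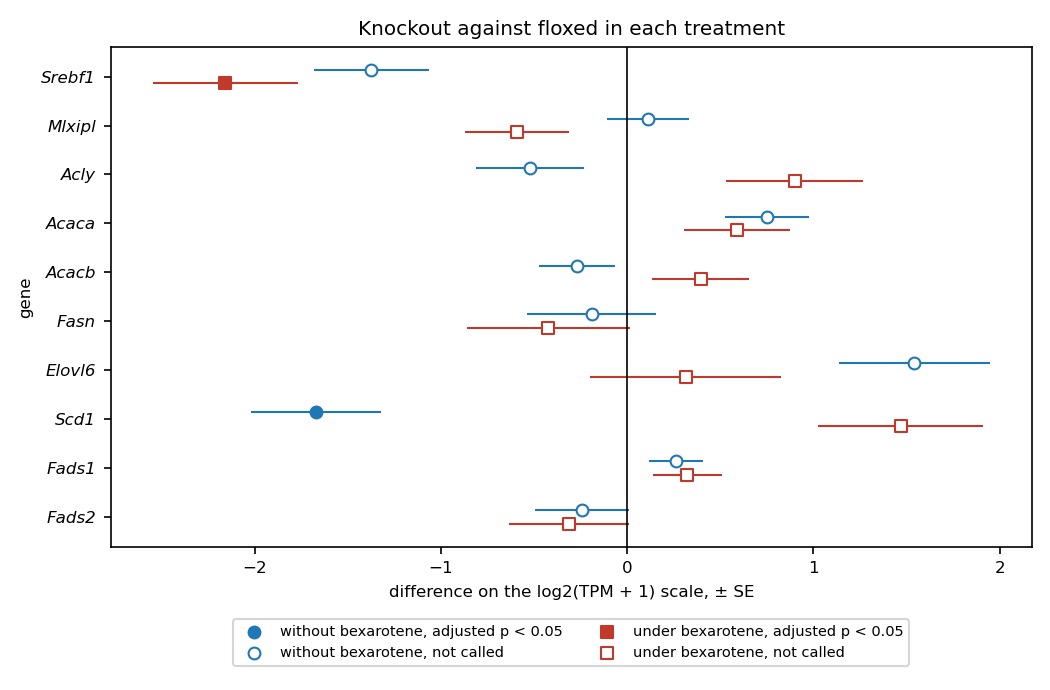
Difference between knockout and floxed livers on the log2(TPM + 1) scale for the 10 genes, with SE bars, without bexarotene (circles) and under bexarotene (squares). Filled marks passed an adjusted p of 0.05: Scd1 at -1.67 without drug and Srebf1 at -2.16 under drug.

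Ratios taken within a library, which do not depend on its scaling, separated the genotypes. Srebf1 to Mlxipl was 1.46 to 1.72 in floxed controls and 1.81 to 2.28 with bexarotene, but 0.359 to 0.703 in knockout controls and 0.656 to 0.692 in treated knockouts. Every floxed library had more Srebf1 than Mlxipl and every knockout library less. Fasn to Srebf1 was 1.01 to 1.25 and 1.02 to 1.55 in floxed libraries without and with drug, against 2.05 to 3.35 and 3.97 to 4.26 in knockouts. The treated knockouts thus held Fasn near the level of floxed bexarotene libraries 1 and 3 beside 42.7 to 44.3 TPM of Srebf1 in place of 177 and 179 TPM. Fads1 to Fads2 was 0.698 to 0.945 in the 6 floxed and 1.10 to 1.62 in the 6 knockout libraries.

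Other ratios set the untreated floxed libraries or the treated knockouts apart. Acaca to Acacb was 0.586 to 0.759 in floxed controls and 0.984 to 1.69 in all other libraries. Scd1 to Fasn was 13.8 to 19.6 in floxed controls, 9.64 to 11.5 with bexarotene, 37.0 to 38.7 in treated knockouts, and 3.90, 4.49 and 11.7 in knockout controls 1, 2 and 5. Scd1 made up 69.9% to 72.2% of the summed TPM of the 8 enzymes in floxed controls, 76.3% to 81.3% in treated floxed libraries and 91.0% to 91.1% in treated knockouts, against 35.1%, 36.7% and 60.0% in knockout controls 1, 2 and 5. The other 7 enzymes together reached 658 to 676 TPM in treated knockouts, within the 566 to 823 TPM of treated floxed libraries, and 326 to 479 TPM in the 6 controls. The ratios were chosen after the values had been seen and carry no test.

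**Figure D4:**
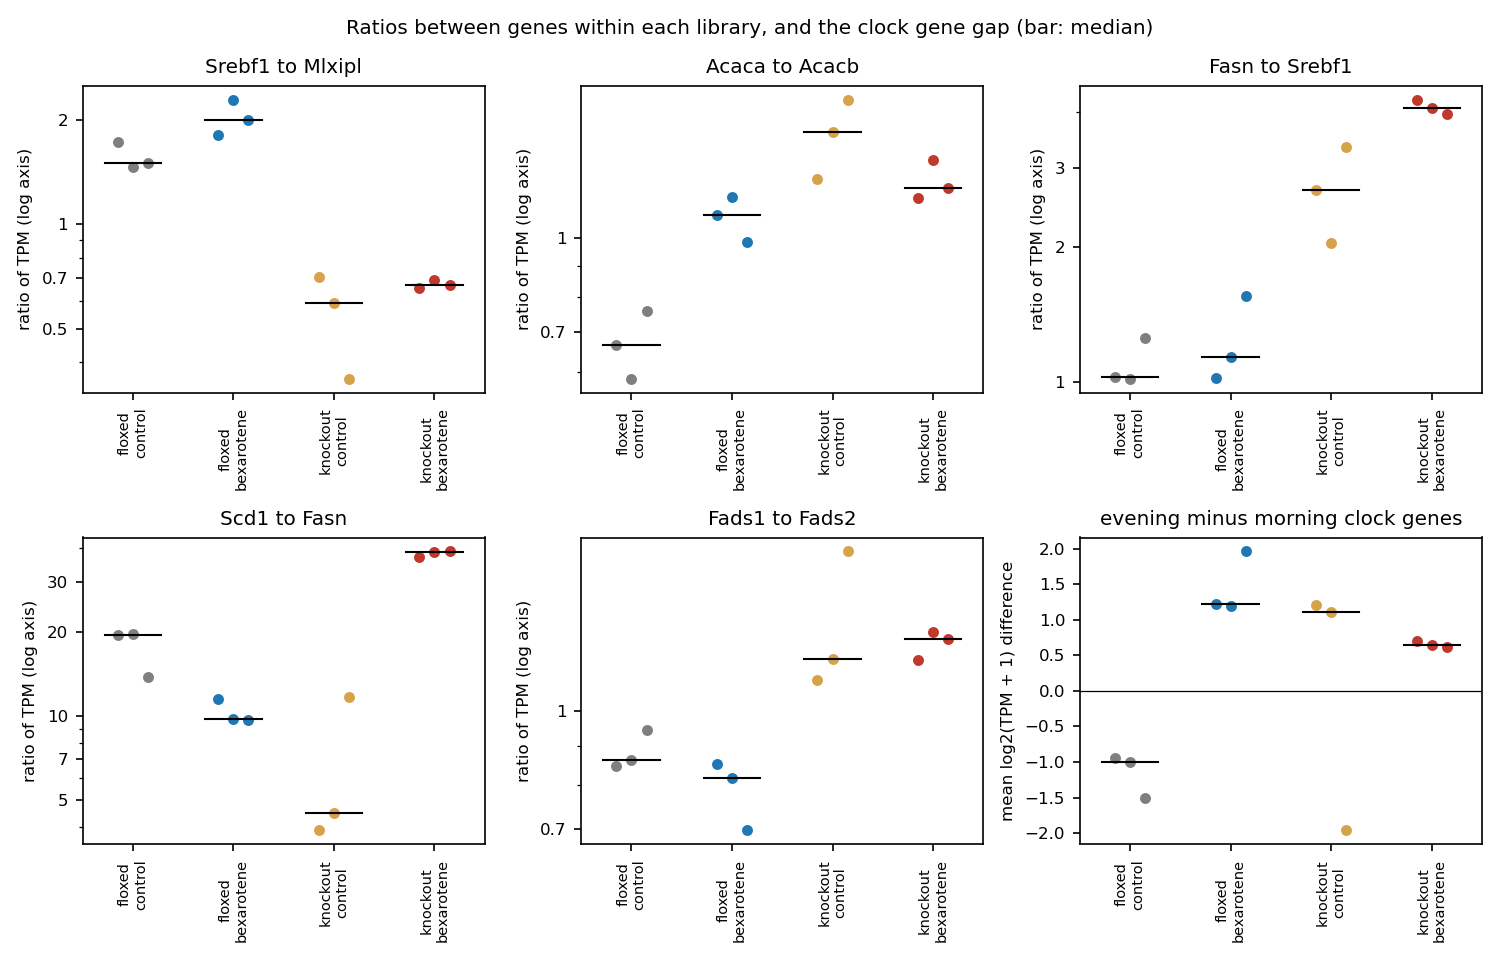
Ratios of TPM between genes within each of the 12 libraries on log axes, and the gap between evening and morning clock genes on a log2 scale, by group, with a bar at the median. Srebf1 to Mlxipl is at least 1.46 in floxed and at most 0.703 in knockout libraries, and the clock gap is below 0 in the floxed controls and in knockout control 5.

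Of 27 other genes of fatty acid synthesis, elongation and desaturation, 21 were tested, and Thrsp was among those called in each of the 5 comparisons in which any of them passed. Between treated knockout and untreated floxed livers limma called 0. There 6 were at an unadjusted p under 0.05, as were 1202 of all 11018 tested genes. With 12 separate libraries 12 were called, where 15.3% of tested genes were. Thrsp encodes a small protein that promotes lipogenesis and answers to thyroid hormone. It had 433 to 442 TPM in floxed controls, 1463 to 1508 with bexarotene, 13.9 to 16.6 in knockout controls and 331 to 347 in treated knockouts, and was the 1 gene of the 21 that rose with bexarotene in floxed (1.76 ± 0.11) and in knockout livers (4.41 ± 0.14). From a lower start it rose by 2.65 ± 0.18 more in knockouts (adjusted p = 0.00190), but in treated knockouts it stayed below every floxed library.

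Without drug 4 of the 21 fell in knockouts and 0 rose. They were Thrsp, Me1, the malic enzyme that supplies NADPH (56.9 to 66.2 TPM in floxed controls, 6.55 to 16.2 in knockout controls; -2.30 ± 0.33, adjusted p = 0.00875), Hacd1 (-0.90 ± 0.18, adjusted p = 0.0302) and Elovl5, an elongase of polyunsaturated fatty acids (-1.81 ± 0.40, adjusted p = 0.0484). The calls of Hacd1 and Elovl5 were made in 16 and 12 of 24 alternatives, and both were lost without floxed control 4 (adjusted p = 0.24 and 0.326), floxed controls 1 and 3, knockout control 2 or treated floxed library 1 or 3. Elovl5 stood at 27.7, 27.4 and 58.0 TPM in knockout controls 1, 2 and 5 and at 239 to 256 TPM in treated knockouts, a difference of 2.76 ± 0.50 with an adjusted p of 0.0751. Me1 remained low there, at 23.8 to 26.7 TPM. Hacd1 codes for a dehydratase of the elongation cycle.

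Under bexarotene Scd2, a sister gene of Scd1 that is little used in adult liver, was above 1 TPM in the treated knockouts and in knockout control 5 alone, at 13.4 to 13.9 and 4.12 TPM, and at most 0.79 TPM in the other 8 libraries. It rose by 3.38 ± 0.67 in treated knockouts against treated floxed livers (adjusted p = 0.0488), where Thrsp fell by 2.12 ± 0.14. That call was made in 12 of 24 alternatives, with values of 1.79 to 4.85 and adjusted p up to 0.155, and was lost without floxed control 4, floxed controls 1 and 3, knockout control 2 or any 1 of the treated floxed libraries. Reads of Scd1 and Scd2 may be split where their sequences are alike, so the level of Scd2 is uncertain. Elovl3, an elongase with a strong daily rhythm in male mouse liver, had 2.94 and 1.86 TPM in knockout controls 1 and 2 and 368 TPM in control 5, against 416 to 523 TPM in floxed controls and 53.7 to 90.4 TPM in all treated libraries. It was not called in any comparison.

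**Figure D5:**
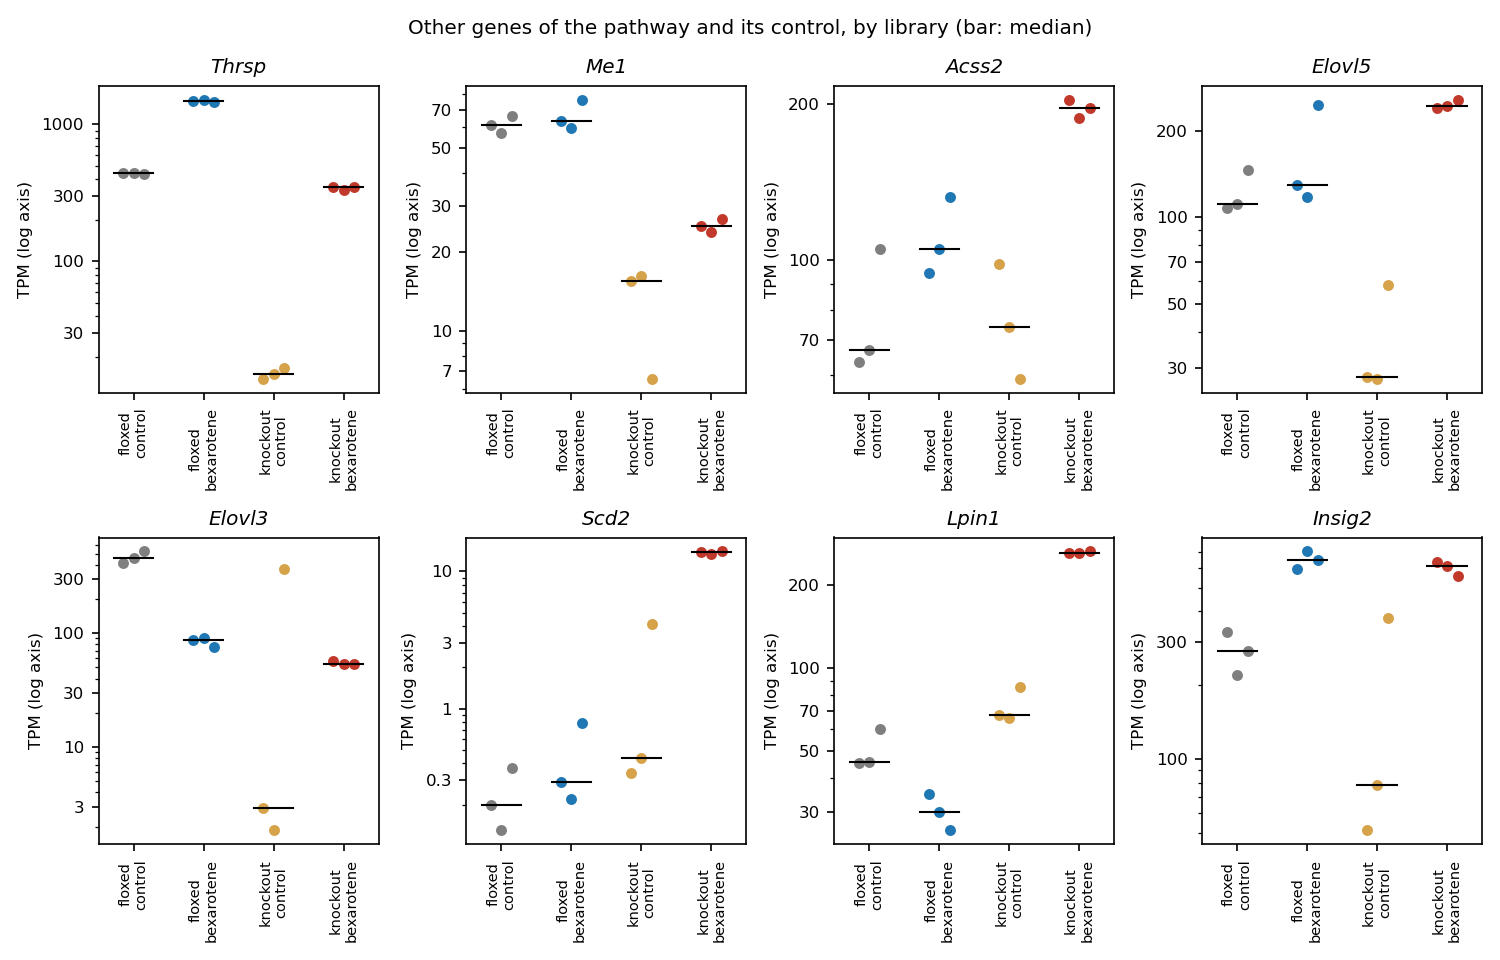
TPM of 8 other genes of the pathway and its control in each of the 12 libraries, on a log axis with its own range in each panel, by group, with a bar at the median. Elovl3 and Insig2 place knockout control 5 far from knockout controls 1 and 2, and Lpin1 stands at 262 to 265 TPM in treated knockouts.

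Genes that control SREBP and ChREBP were counted beside all tested genes. Of 26 tested, limma called 0 with bexarotene in floxed livers, where 2.12% of tested genes were called. There 4 were at an unadjusted p under 0.05, as were 1692 of all 11018 tested genes. With 12 separate libraries 3 were called, where 9.64% of tested genes were. The 1 that rose in knockout livers was Lpin1, a phosphatidate phosphatase that also restrains SREBP1 in the nucleus. Lpin1 stood at 45.4 to 60.0 TPM in floxed controls, 25.8 to 34.8 with bexarotene, 66.1 to 85.6 in knockout controls and 262 to 265 in treated knockouts (1.84 ± 0.24 with bexarotene in knockouts, adjusted p = 0.0219). It also rose by 3.09 ± 0.24 in treated knockouts against treated floxed livers (adjusted p = 9.8e-04), the 1 gene of the 26 called there. The LXR genes Nr1h3 and Nr1h2 stayed at 49.5 to 74.4 and 13.9 to 16.7 TPM over all libraries. Insig2, which retains SREBP in the endoplasmic reticulum, held 220 to 329 TPM in floxed controls, 593 to 702 with bexarotene, 51.1, 78.3 and 376 in knockout controls 1, 2 and 5 and 557 to 638 in treated knockouts, with no call. Pparg, at most 4.08 TPM, was the 1 gene of the list that fell in knockouts without drug (-1.33 ± 0.29, adjusted p = 0.0468). That call was made in 11 of 23 alternatives, with values of -2.32 to -0.51 and adjusted p up to 0.283, and was lost without floxed control 4, floxed controls 1 and 3, knockout control 1 or 2 or any 1 of the treated floxed libraries.

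Lists of neighbouring pathways were counted in the same way. Of 9 LXR targets outside synthesis, 3 rose and 1 fell with bexarotene in floxed livers, where 1.84% of tested genes rose and 0.281% fell. Of the 9 differences 5 lay above 0 and 4 below, with a median of 0.47 against 0.062 over all tested genes. The gene that fell is not reported here. The risers were the sterol exporters Abcg5 and Abcg8 and the phospholipid enzyme Lpcat3 (32.7 to 42.5 TPM in controls, 76.3 to 104.7 with drug; 1.15 ± 0.17, adjusted p = 0.0142). In knockout livers limma called 0 of the 9 with bexarotene. There 3 were at an unadjusted p under 0.05, as were 1010 of all 11018 tested genes. With 12 separate libraries 3 were called, where 10% of tested genes were. Abcg5 had 17.4 to 22.4 TPM in floxed controls and 62.3 to 68.5 with bexarotene, against 18.4 to 26.4 and 26.3 to 27.7 in knockouts without and with drug, and fell by 1.23 ± 0.23 between treated knockouts and treated floxed livers (adjusted p = 0.0344). In knockouts Abcg8 went from 24.06 to 29.99 TPM without drug to 42.58 to 44.32 TPM with it (0.70 ± 0.18, adjusted p = 0.189), and Lpcat3 from 21.84 to 25.09 to 42.48 to 47.4 TPM (0.92 ± 0.21, adjusted p = 0.143), both with no overlap. Without drug Lpl, which codes for lipoprotein lipase, fell by 2.45 ± 0.19 in knockouts (adjusted p = 3.99e-04). All 23 alternatives that tested it called it, with values of -4.78 to -0.97. Lpl was too low to pass the filter of 5 TPM, so the size of its fall is uncertain. Abcg8 rose in knockouts without drug by 0.77 ± 0.14 (adjusted p = 0.0219). Of 12 genes of glycolysis and ChREBP targets 1 rose with bexarotene in floxed livers, the ChREBP target Txnip, at 18.8 to 37.9 TPM in controls and 94.5 to 233.7 TPM with drug (2.16 ± 0.38, adjusted p = 0.0292). In knockouts limma called 0 of the 12 with bexarotene. There 5 were at an unadjusted p under 0.05 and 5 were called with 12 separate libraries, beside the same 1010 genes and 10%. Without drug Gpd1, which makes the glycerol phosphate backbone of triglycerides, fell by 0.74 ± 0.14 in knockouts (adjusted p = 0.0279). Of 21 genes of cholesterol synthesis and uptake, 5 rose and 0 fell in knockouts without drug, with a median log2 difference of 0.77 against 0.0039 over all tested genes.

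The tested genes nearest in pattern were found by the root mean square difference of centred log2(TPM + 1) over the 9 samples. For Srebf1 they were Retsat, the retinol saturase (0.27), Tmem141 (0.41) and Ppl (0.41). Retsat had group means of 141 TPM in floxed controls, 352 with bexarotene, 42.9 in knockout controls and 92.5 in treated knockouts. For Fasn they were Smpd3 (0.19), whose means were 0.20 to 3.70 TPM, Sulf2 (0.35) and Txnip (0.36). The log2(TPM + 1) scale understates changes of genes as low as Smpd3 and Ppl (means of 0.26 to 8.14 TPM), so their nearness is uncertain. For Scd1 they were AC102159.1 (0.50), Elovl5 (0.61) and Ugt1a5 (0.67). Scd1 itself varied with an SD of 1.65 over the 9 samples, so even its nearest gene differed by 0.50.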

How the data were processed

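RNA of hepatocytes was sequenced as 12 libraries, 3 per group, from an Illumina stranded mRNA kit with 1 µg of total RNA, per the labels' protocols. Reads went through fastp, HISAT2 and StringTie, per the submitters' processing notes, and the genome build and the use of strand are, like the versions, not given in the sources used here. Values are TPM, which the authors deposited as 1 table for 26748 gene identifiers, of which 21810 matched a symbol. Without counts, depth is unknown. Column numbers did not match the sample titles, so each column was tied to its group alone and the libraries are called by their column numbers. No label says that samples were separate animals, so the spread behind each p-value is that between these samples and may be technical.

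Near-identical libraries (robust SD of log2 differences under 0.1) were averaged. Linear models over all 4 groups were fitted to log2(TPM + 1) with limma 3.58.1 in R 4.3.3 with a mean-variance trend (5 residual and 3.22 prior degrees of freedom), and the lone treated knockout sample was given the spread of the rest. The Benjamini-Hochberg adjustment ran over 11018 tested genes, and rose, fell and called mean an adjusted p under 0.05. Differences in log2(TPM + 1) serve as fold changes, a scale that understates changes of low genes. The fit was tested on simulated data. The 10 genes, the lists and the tests were chosen with earlier results of these data known. Named genes were the 10, the RXR genes, up to 3 called genes of each other list per comparison (otherwise the 2 highest), and the 3 genes nearest in pattern to Srebf1, Fasn and Scd1. Some of these are not reported here, and Elovl5, Elovl3, Acss2 and Nr1h2 were added after their values were seen. Alternatives changed the pseudocount (0.1 or 5), the filter (none or 5 TPM), the averaging, the scaling, the trend, a replicate block, the groups in the fit and the libraries. Promoters are RefSeq windows, present for 8 of the 10 genes.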

Additional observations from a re-analysis of the deposited data

Results flagged for a closer look

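None of the 10 genes had drug effects that passed a test of the difference between genotypes, but 2 of the other listed genes did. For Thrsp, a promoter of lipogenesis, the bexarotene effect was larger in knockout than in floxed livers by 2.65 ± 0.18 on the log2 scale (adjusted p = 0.00190 in limma), and 22 of 23 alternatives called it, the exception being the fit without floxed control 4 and floxed bexarotene 4 (adjusted p = 0.0740). For Lpin1, a phosphatidate phosphatase, it was larger by 2.63 ± 0.30 (adjusted p = 0.0223), with TPM lower in every treated than in every control floxed library and higher in every treated than in every control knockout library. Of the 23 alternatives 18 called it, with an adjusted p of up to 0.151.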

How the results depend on the processing

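With averaged samples 5, 1, 1, 1, 0 and 2 of the 10 genes were called for bexarotene in floxed livers, bexarotene in knockouts, knockout without drug, knockout under drug, the difference of effects and treated knockout against untreated floxed. Without a filter the counts were 0, 2, 0, 0, 0 and 1, and with 12 separate libraries 7, 7, 4, 4, 1 and 7. With only the groups compared, 0 were called for bexarotene in knockouts, knockout without drug and treated knockout against untreated floxed. For knockout without drug, the filter of 5 TPM, quantile normalization and median ratio scaling gave 2, and both scalings gave 1 for treated knockout against untreated floxed. The number of all genes called under these filters, scalings and fits of only the groups compared is not given here. Changes in these counts therefore need not be particular to the 10 genes. Leaving out libraries gave 0 to 6, 1 to 2, 0 to 2, 0 to 1, 0 to 1 and 0 to 2, and all called genes numbered 32 to 553, 22 to 249, 80 to 761, 103 to 435, 0 to 210 and 17 to 337. The fit without floxed control 4 and floxed bexarotene 4, chosen after seeing the data for their macrophage markers, gave 1, 1, 0, 0, 0 and 1. The causes were not tested. The column numbers, which do not match the sample titles, were tried as a replicate block after seeing the data. For floxed libraries numbered 1, 3 and 4, deviations from the group means correlated across genes between control and treated at 0.036, 0.0053 and 0.14. Controls 1 and 4 correlated best with the treated floxed library of their own number, and control 3 with treated floxed library 1 (0.16). The numbers were not taken as pairs. A set averaged over numbers cannot be blocked, so 12 separate libraries were used, and 7, 7, 5, 6, 6 and 8 of the 10 genes were called with the replicate block (1771, 1744, 1438, 1819, 1799 and 1876 genes in all, against 1062, 1105, 1302, 1589, 651 and 1685 without it).

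Of the differences of the single genes, 29 of those recomputed changed sign, in genes that were not called. With the replicate block these were Fads1 (-0.0070) and Fads2 (-0.13) with bexarotene in knockouts, Acly (0.026), Acacb (0.15), Fasn (0.46) and Fads2 (0.15) in knockout without drug, Fads1 (-0.088) in the difference of effects and Fads2 (0.023) between treated knockout and untreated floxed livers. By scaling these were Fads1 with bexarotene in floxed livers (-0.076 by quantile normalization, -0.029 by median ratio) and Fads2 in the difference of effects (0.016 by quantile normalization). Without the 2 libraries with high macrophage markers, Acly (0.039), Acacb (0.0080) and Fasn (0.16) turned in knockout without drug, and Fads1 (-0.00348) and Fads2 (0.020) in the difference of effects. With single libraries or floxed controls 1 and 3 left out, the ranges crossed 0 for Acly (-1.04 to 0.074, or -0.57 at the lowest with 1 library out) with bexarotene in floxed livers and for Fads2 (-0.077 to 0.42) in knockouts. In knockout without drug they did for Mlxipl (-0.13 to 0.35), Acly (-1.08 to 0.039), Acacb (-0.55 to 0.0080, or -0.35 at the lowest with 1 out), Fasn (-0.54 to 0.16, or -0.35) and Fads2 (-0.47 to 0.027). In the difference of effects they did for Acaca (-0.56 to 0.24), Fasn (-0.58 to 0.12), Fads1 (-0.035 to 0.18) and Fads2 (-0.34 to 0.16), and between treated knockout and untreated floxed livers for Acly (-0.14 to 0.97). Fasn in the difference of effects was 0.087 without floxed bexarotene 4.

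Quantile normalization moved the median of all genes by -0.128 for bexarotene in knockouts and -0.119 for treated knockout against untreated floxed livers, and median ratio scaling moved the latter by -0.104. The share of called genes that were higher went from 80.7% to 69.8% for the former and from 66.2% to 50.8% and 52.7% for the latter. Of the other genes called with bexarotene in floxed livers, Txnip was called in 18, Lpcat3 in 19, Abcg5 in 22 and Abcg8 in 23 of 24 alternatives, and Lpin1 in 21 in knockouts. Without drug Gpd1 was called in 16, Abcg8 in 17 and Me1 in 20, and under drug Abcg5 in 17. Unknown depth limits what low values can show, and 1 treated knockout sample limits every comparison that uses it.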
